A study of Homo sapiens with 18 samples.

Results

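The interferon-stimulated effector genes are the genes that a cell switches on after it senses interferon and whose products act on a virus, on viral RNA or on the cell's own proteins. The 44 genes described here were taken by symbol from the normalised count tables of both cell lines, which list 16715 different genes. Members of the OAS, IFIT and IFITM families and the signalling genes of the pathway were left out of the 44. MCF10A listed 42 of them and hTERT RPE-1 listed 39. MX2 and XAF1 in both lines, and RSAD2, CMPK2 and TNFSF10 in hTERT RPE-1, were not analysed here.

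RNAseq of polyadenylated RNA was carried out on 18 libraries, 9 from MCF10A, a breast epithelial line, and 9 from hTERT RPE-1, a retinal pigment epithelial line immortalised with telomerase. Cells of both lines were transfected for 72 h with 30 nM of one of 3 small RNAs, and each group held 3 biological replicates. The negative control was siNT, a non-targeting siRNA, and the other groups received the microRNA mimic hsa-miR-28-5p (miR-28) or hsa-miR-708-5p (miR-708). Every group therefore carried a transfected double-stranded RNA, and no untransfected group was analysed here. The replicates of MCF10A carry the numbers 7, 8 and 9, those of hTERT RPE-1 the numbers 1, 2 and 3. Each line is 1 cell line, so the lines differ in more than tissue of origin.

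Type I and type III interferons bind their receptors at the cell surface and activate the kinases JAK1 and TYK2, which phosphorylate transcription factors of the STAT family. With IRF9 these form a complex that enters the nucleus and binds the interferon-stimulated response element (ISRE) in the promoters of its targets. Epithelial cells make interferon after RIG-I-like receptors or Toll-like receptors detect double-stranded RNA. The effector proteins include GTPases that trap viral components, the ubiquitin-like ISG15 and its conjugating enzymes, ADP-ribosyltransferases, TRIM ubiquitin ligases and proteins that degrade or restrict RNA.

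The sequence of the mimic is shown first, since its seed (bases 2 to 8, in capitals) is the stretch that pairs with target mRNAs. Both mimics belong to the MIR-28 family. The RefSeq entry of hsa-miR-708-5p lies at chr11:79402077-79402099 (GRCh38.p14), minus strand.
hsa-miR-708-5p: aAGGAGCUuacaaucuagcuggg
A match to the seed was found in the annotated 3′ UTRs (GENCODE, hg38) of 6 of the 42 listed members in MCF10A (14.3%) and of 6 of the 39 in hTERT RPE-1 (15.4%), against 18.7% of all tested genes with an annotated 3′ UTR in each line. These members were TRIM25, TRIM14, ISG20, DDX60L, SP100 and SP110. TRIM25, the only member with 2 matches, is shown because its response differed in sign between the lines with miR-28, with the seed match in capitals.
TRIM25 3′ UTR, chr17:56890253-56890275, minus strand: tttccccaAGCTCCTtatagcct
TRIM25 3′ UTR, chr17:56890159-56890181, minus strand: tagaggagAGCTCCTgtcaggct

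The promoter windows of RefSeq (GRCh38.p14, 250 bases before to 50 after the RefSeq start used) were searched on both strands for the ISRE core. This core is GAAA followed by GAAA after any pair of bases (NN). The core was present in 27 of the 40 members with a window (67.5%) and in 996 of 27305 promoters (3.65%). The gamma-activated site core, TTCNNNGAA, was present in 9 of the 40 (22.5%) and in 2152 of the 27305 (7.88%). The motifs can overlap, as they did in IFI27. RSAD2, CMPK2, HERC6 and SAMD9L, which also rose strongly with miR-708 in MCF10A, had no ISRE core in their windows. ISRE cores of some strong responders, and that of GBP1, with the smallest response in hTERT RPE-1, are shown in the gene's direction. The core is in capitals, and GBP1 holds it on the opposite strand.
ISG15, chr1:1013382-1013407: gggaaaggGAAACCGAAActgaagcc
IFI6, chr1:27672290-27672315: agagagggGAAAATGAAActgcagag
IFI6, chr1:27672331-27672356: agagagggGAAAATGAAActctgcag
IFI27, chr14:94110633-94110658: gtttcctgGAAAATGAAAcctatctc
CEACAM1, chr19:42528580-42528605: acagaaagGAAAGAGAAAgtaaggac
GBP1, chr1:89065318-89065343: cgaagtacTTTCAGTTTCatattact
With miR-708, the 26 tested members with a core in hTERT RPE-1 had a median log2 fold change of 4.44 (range 1.23 to 8.99) and the 10 without had 3.31 (1.97 to 4.31). In MCF10A the order was turned, with a median of 2.28 for the 27 members with a core and 2.86 for the 12 without. These are descriptions of the windows, and no test was made. The RefSeq start used for a window can lie inside the GENCODE gene, as for ISG15, IFI27 and CEACAM1. In GENCODE annotation, IFI6 lies at chr1:27666064-27672212 (minus strand), ISG15 at chr1:1001138-1014540 (plus), GBP1 at chr1:89051882-89065360 (minus), IFI27 at chr14:94104836-94116695 (plus), CEACAM1 at chr19:42507304-42561234 (minus), MX1 at chr21:41420020-41470071 (plus) and TRIM25 at chr17:56836387-56914080 (minus).

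By the step that 1 read makes in the values, the MCF10A libraries held an estimated 19.4–31.7 M gene reads and the hTERT RPE-1 libraries 23.8–40.3 M, and 3 reads corresponded to a normalised count of 2.49–4.03 and 2.36–4.41. RPS28, a ribosomal protein gene whose level was used to check the labels, was 3589, 3960 and 4062 in the siNT libraries of MCF10A, 697, 500 and 503 with miR-28 and 785, 554 and 532 with miR-708. In hTERT RPE-1 it was 3465, 3301 and 2892 with siNT, 132, 184 and 123 with miR-28, and 177, 160 and 123 with miR-708. RPS28 was thus lower in every mimic library than in every siNT library of its line. All 8 basal epithelial markers were listed in MCF10A, where their summed value was 201142–224216 with siNT, 140913–150132 with miR-28 and 117153–142649 with miR-708, and 1 of the 8 was listed in hTERT RPE-1. Of 8 retinal pigment epithelial markers, 6 were listed in hTERT RPE-1, and RPE65 and TYR were not analysed here. Their summed value was 28340–30705 with siNT, 11069–12235 with miR-28 and 6578–7101 with miR-708. Most of the siNT sum came from the keratins KRT8 (14031–15598) and KRT18 (11570–13237). In MCF10A, 6 of the 8 were listed as well, with a sum of 8040–9072 with siNT. In hTERT RPE-1, KRT8, KRT18 and MITF were lower with both mimics and PMEL with miR-28 (limma, adjusted p below 0.05). RLBP1 was higher with both mimics and BEST1 with miR-28. The 4 mesenchymal markers were listed in both lines, and their summed value lay at 21866–87591 in MCF10A while it lay at 927095–1969296 in hTERT RPE-1. Of 7 leukocyte markers, 3 were listed in MCF10A and 2 in hTERT RPE-1. Their summed value was 436–712 with siNT, 440–507 with miR-28 and 830–1043 with miR-708 in MCF10A, against 326–458, 527–3725 and 4795–7237 in hTERT RPE-1, where it was nearly all CD68. PTPRC, the pan-leukocyte marker, was low in all 9 libraries of hTERT RPE-1, between 3.14 and 11.4, though above the 3-read value of each library. It was not listed in MCF10A. The part of these markers in the results was not tested.

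One library stood apart. Fewer cells of a kind and less RNA per cell cannot be told apart in such bulk samples. For 39 of 39 members, replicate 1 of miR-28 in hTERT RPE-1 was the lowest of its group, and replicate 2 was the highest. Over the members, its median value was 19.8% of the miR-708 mean of the line, against 117% in replicate 2 and 82.0% in replicate 3. Its RPS28 value of 132 lay between those of the other replicates. Ribosomal RNA made up 15.12% of its values and 4.23–7.20% of those of the other 8 libraries. The part of this rRNA share in its member values was not tested. For the effector genes, the main counts, medians and leading members of comparisons with the miR-28 group of hTERT RPE-1 are given with and without this library. Pathway genes are given only with it. Leaving it out also changes the spread used for every gene, and shares of all genes are given only for the main fits. Through the spread that the 3 groups of a line share, it also entered the standard errors of miR-708 in hTERT RPE-1. The miR-708 difference between the lines was not recomputed without it. In MCF10A, replicate 7 of miR-708 was the lowest of its group for 36 of 42 members and replicate 8 the highest for 39, and in hTERT RPE-1 replicate 1 of miR-708 was the lowest for 37 of 39.

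**Figure D1:**
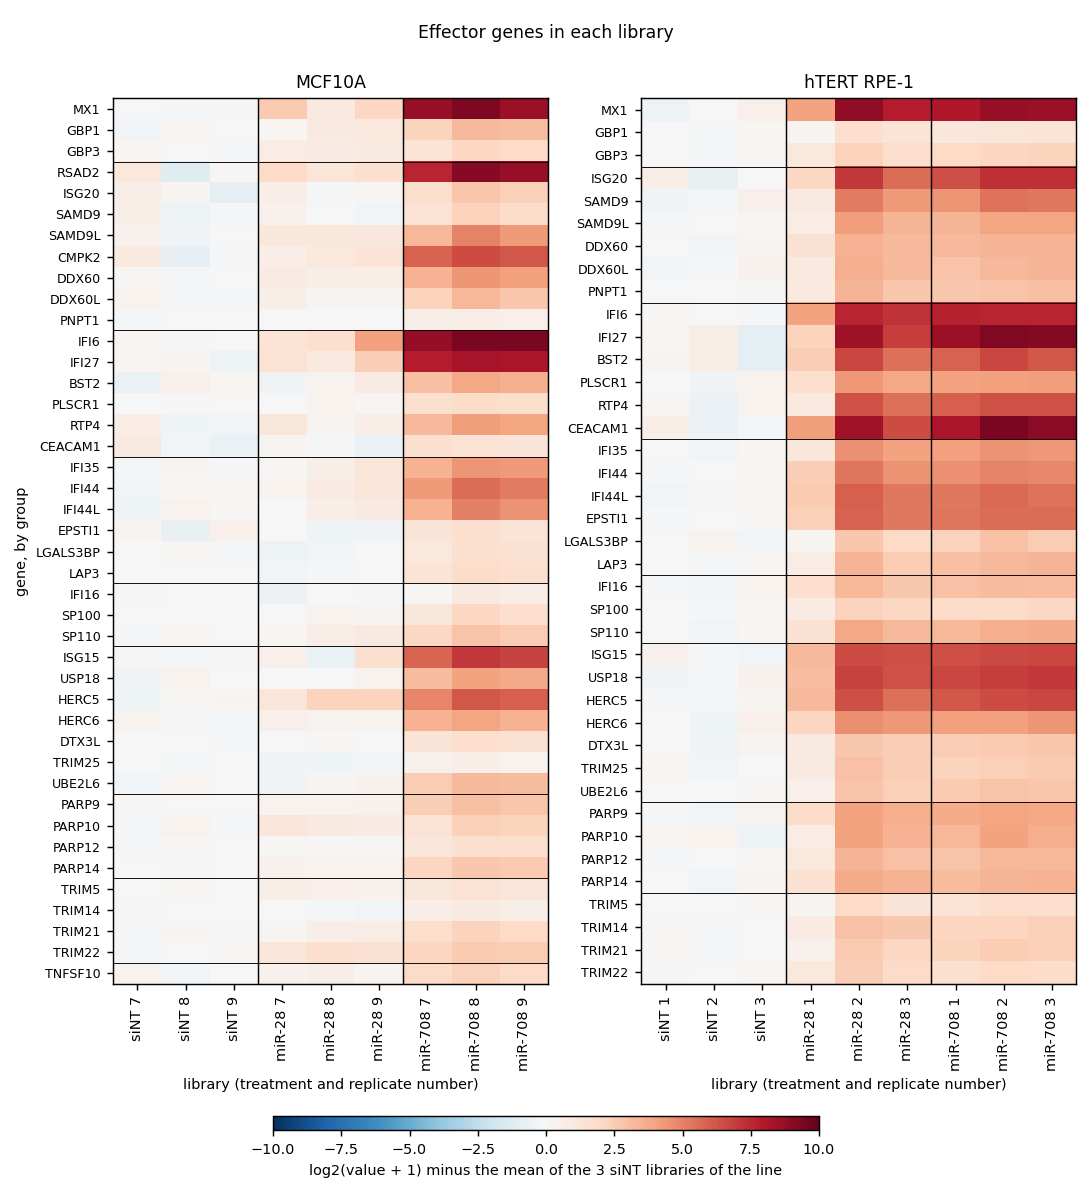
Each cell is the log2(normalised count + 1) of 1 gene (rows, by functional group) in 1 library (columns, treatment and replicate number) minus the mean of the 3 siNT libraries of the line, with MCF10A on the left (42 genes) and hTERT RPE-1 on the right (39 genes). The miR-708 columns are red throughout in both lines, the miR-28 columns are pale in MCF10A, and miR-28 replicate 1 is paler than replicates 2 and 3 in hTERT RPE-1.

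The members were compared library by library. The mean of log2(normalised count + 1) over the members was 8.16 with siNT, 8.70 with miR-28 and 11.39 with miR-708 in MCF10A, against 8.25, 11.61 and 12.55 in hTERT RPE-1, where the miR-28 mean was 12.47 without replicate 1. In MCF10A the median log2 difference from the siNT mean over the 42 members was 0.35, 0.36 and 0.44 in the miR-28 libraries and 2.14, 2.79 and 2.58 in the miR-708 libraries. All 42 members lay above all 3 siNT libraries in all 3 miR-708 libraries together, against 22.6% of all genes tested. In all 3 miR-28 libraries together 17 did, against 19.7%. The median log2 difference in hTERT RPE-1 was 1.12, 4.0 and 3.47 with miR-28 and 3.32, 3.93 and 3.69 with miR-708. There 38 of the 39 members lay above all siNT libraries in all 3 miR-28 libraries together, against 26.9% of all genes. With miR-708 it was 39, against 34.3%. The highest library exceeded the lowest by a median of 6.26-fold in the miR-28 group of hTERT RPE-1, and by 1.30- to 1.62-fold in the 5 other groups.

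**Figure D2:**
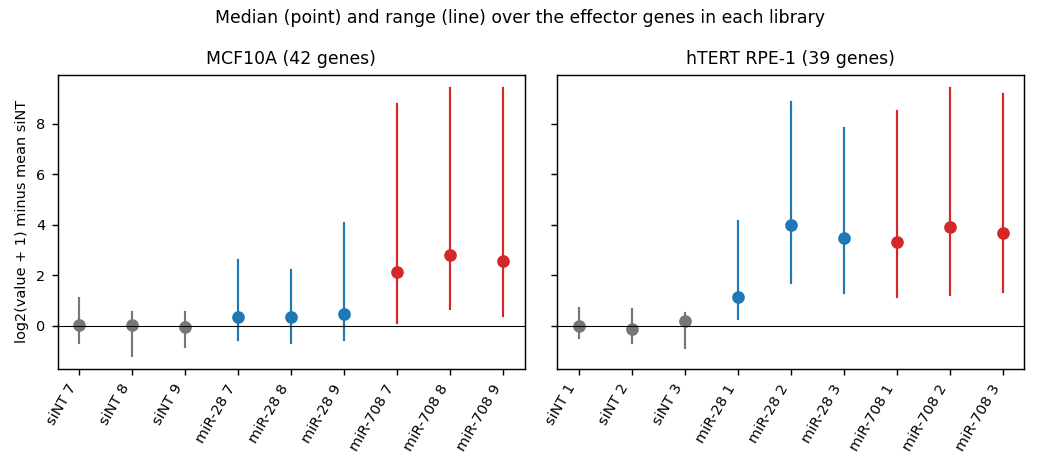
For each of the 18 libraries, the point is the median and the line the range over the listed effector genes of log2(normalised count + 1) minus the siNT mean of the line (y axis). The miR-28 libraries of MCF10A have medians of 0.35 to 0.44, and in hTERT RPE-1 replicate 1 of miR-28 has 1.12 beside 4.0 and 3.47 in the other replicates.

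In MCF10A, the tested effector genes were all higher with miR-708 than with siNT. The largest changes were in IFI6 (595-fold), MX1 (465-fold), RSAD2 (358-fold) and IFI27 (271-fold), and the smallest in TRIM25 (1.41-fold), IFI16 (1.46-fold) and PNPT1 (1.5-fold). All 42 tested members were called higher (limma with Benjamini-Hochberg adjustment over 14726 genes, adjusted p below 0.05), against 15.5% of all genes tested. The median log2 fold change of the members was 2.49, and that of all genes was 0.00. All 6 members with a siNT library under 10 (MX1, RSAD2, ISG15, CMPK2, EPSTI1 and RTP4) are among the 42, and without them 36 of 36 were called. EPSTI1 and IFI16 lost their call in 5 of the 6 fits that left out 1 library.

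IFI6, a small mitochondrial and endoplasmic reticulum protein that restricts flaviviruses, had values of 28.7, 23.6 and 24.6 with siNT and 11900, 18122 and 18335 with miR-708 in MCF10A (log2 fold change 9.22 ± 0.54 SE, n = 3 per group, limma adjusted p = 1.57e-06). No miR-708 library came near the siNT level. MX1, a dynamin-like GTPase that binds viral nucleocapsids, went from 8.38, 7.50 and 9.13 to 3923, 5891 and 3504 (log2 fold change 8.86 ± 0.36 SE, limma adjusted p = 1.28e-07). All 3 miR-708 libraries were far above its siNT level, which was below 10 in every library and so is known from few reads. RSAD2, or viperin, makes a chain-terminating nucleotide from CTP and was 29.9, 5.36 and 14.6 with siNT and 2793, 8047 and 6239 with miR-708. Its neighbour CMPK2, a mitochondrial nucleotide kinase, was 13.2, 3.21 and 5.48 and then 441, 661 and 533. The siNT value of CMPK2 in replicate 8 was at the level of 3 reads, and its log2 fold change was 6.21 with a pseudocount of 1 and 5.03 with a pseudocount of 10.

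IFI27, a mitochondrial membrane protein, was 51.5, 53.6 and 31 with siNT and 10396, 13479 and 13048 with miR-708 (log2 fold change 8.08 ± 0.33 SE, limma adjusted p = 1.28e-07). IFI44, a microtubule-associated protein, ranged from 194 to 274 and was then 4518, 11792 and 8897, and its neighbour IFI44L was 690, 1182 and 1012 and then 10668, 31689 and 21000. In both, replicate 7 with miR-708 was below replicates 8 and 9 but far above siNT. SAMD9L was 231, 130 and 162 with siNT and 1702, 5289 and 3335 with miR-708 (18.2-fold). DDX60, a helicase that promotes RIG-I signalling, was 445, 372 and 399 and then 4492, 8701 and 6930 (16-fold). These groups did not overlap either.

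The 7 genes of the ISG15 conjugation and ubiquitin group all rose with miR-708 in MCF10A. HERC6, TRIM25 and DTX3L are in this group beside the 4 genes described next. ISG15 is a ubiquitin-like modifier, UBE2L6 its conjugating enzyme, HERC5 its main ligase and USP18 the protease that removes it. ISG15 was 10.8, 8.57 and 11 with siNT and 618, 1486 and 1226 with miR-708, while HERC5 was 29.9, 43.9 and 49.3 and then 1223, 3014 and 2616. USP18 was 81.4, 131 and 98.6 and then 925, 1647 and 1426, and UBE2L6 was 266, 385 and 346 and then 1933, 3186 and 2992. In all 4 genes the miR-708 libraries were separate from siNT. All 7 genes of the group were called higher with miR-708, with log2 fold changes of 0.50 (TRIM25, a ligase of RIG-I) to 6.56 (ISG15) and a median of 3.63. The 8 nucleotide and RNA factors had a median of 3.39, the 6 membrane and trafficking proteins 3.64, the 3 tested GTPases 2.84, the 4 ADP-ribosyltransferases 2.25, and the 4 other TRIM proteins and the 3 nuclear proteins 1.62 each. The 3 nuclear proteins SP100, SP110 and IFI16 ranged from 0.54 (IFI16) to 2.49 (SP110). TNFSF10, the death ligand TRAIL, ranged from 194 to 306 with siNT and from 914 to 1187 with miR-708, and the miR-708 and siNT values did not overlap.

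With miR-28 in MCF10A the same genes changed much less. Of 42 tested members, 12 were called higher, which is 28.6% against 10.7% of all genes tested, and 1 was called lower (TRIM25), which is 1 of 42 against 12.0%. The median log2 fold change of the members was 0.43 (range −0.34 to 2.34), beside 0.01 for all genes. The values of 17 members in the miR-28 group lay wholly above those of the siNT group, against 19.7% of all genes tested. The other 29 members did not pass the test, and their log2 fold changes ran from −0.28 to 1.03.

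The 12 members called higher were IFI6, HERC5, MX1, IFI27, RSAD2, TRIM22, SAMD9L, PARP10, GBP3, DDX60, TRIM21 and TRIM5. IFI6 was 67.0, 78.8 and 446 with miR-28, with replicate 9 far above the other replicates, and its log2 fold change over siNT was 2.34 ± 0.54 SE (limma adjusted p = 0.0111). MX1 was 56.3, 17.4 and 37.5 (log2 fold change 1.88 ± 0.36 SE, limma adjusted p = 0.00460) and HERC5 was 92.5, 192 and 196 (1.89 ± 0.36 SE, limma adjusted p = 0.00488). The lowest of each miR-28 group lay above the highest siNT library. TRIM22, a ligase that restricts retroviruses and influenza virus, was 1015, 1172 and 1228 with siNT, 2628, 3490 and 3352 with miR-28, and 5003, 7112 and 6516 with miR-708. Its 3 groups did not overlap, and it had the smallest adjusted p of the 12 (limma adjusted p = 0.000242). IFI27 was 123, 87.1 and 249 with miR-28, RSAD2 was 53.6, 32.3 and 42.4, and SAMD9L was 371, 363 and 377, each above its highest siNT library. DDX60 was 703, 592 and 651 with miR-28, apart from siNT and far below miR-708. TRIM25 was 4661, 4149 and 4576 with siNT and 3491, 3374 and 3727 with miR-28, which do not overlap, and fell by 0.34 on the log2 scale (limma adjusted p = 0.0302).

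The count of members called with miR-28 rested on few libraries. Leaving out each library in turn gave 8 to 14 members higher and 0 or 1 lower, and 8 of the 13 calls held in every one of the 6 fits. The calls of DDX60, RSAD2, SAMD9L, TRIM21 and TRIM25 did not. With the replicate number as a block, 18 members were called higher, the 6 added being GBP1, IFI44, IFI44L, PARP9, PARP14 and SP110. The comparisons of both mimics share the siNT libraries, so they are not independent of each other.

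The mimics differed in MCF10A for nearly all of the genes. Values with miR-708 were wholly above those with miR-28 for 42 of 42 members, against 10.4% of all genes tested, and 39 were called (limma, adjusted p below 0.05), against 1.28%. The median difference was 2.06 on the log2 scale (range 0.55 to 6.98), against −0.01 for all genes. The largest were MX1 (6.98 ± 0.36 SE), RSAD2 (6.92 ± 0.51 SE), IFI6 (6.88 ± 0.54 SE), IFI27 (6.45 ± 0.33 SE) and ISG15 (6.07 ± 0.51 SE). ISG15 itself was 14.7, 5.80 and 33.5 with miR-28, which overlaps siNT, and its log2 fold change was 0.49 ± 0.51 SE (limma adjusted p = 0.521). EPSTI1, IFI16 and PARP10 were not called between the mimics. Over the members, the mean with miR-28 was a median of 23.4% of that with miR-708, from 0.751% for RSAD2 to 68.2% for PNPT1, the mitochondrial RNA exonuclease.

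**Figure D3:**
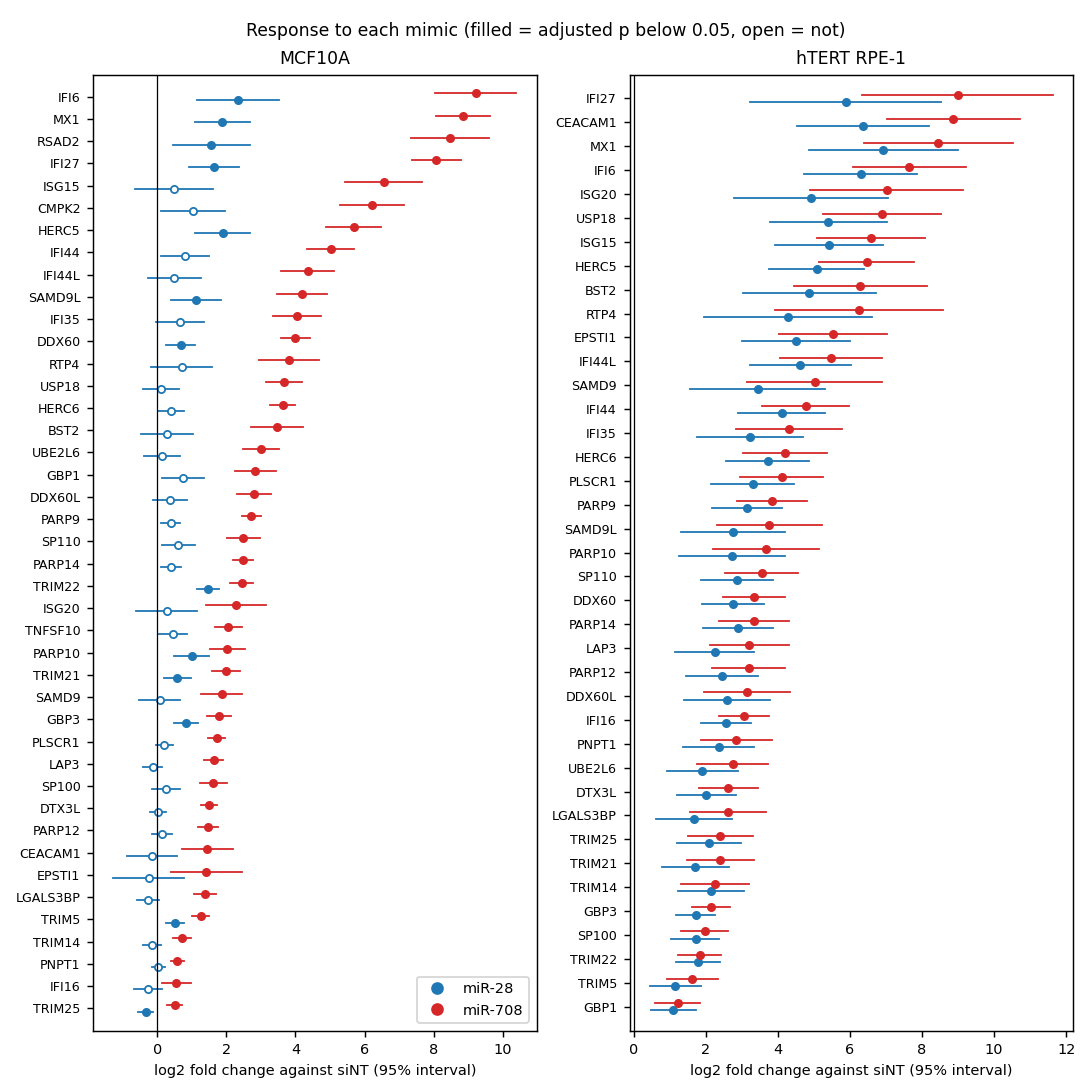
Log2 fold change against siNT with its 95% interval (x axis) for each effector gene, sorted by the response to miR-708, in MCF10A (left) and hTERT RPE-1 (right), with n = 3 libraries per group. Filled points passed an adjusted p below 0.05 in limma and open points did not. In MCF10A the blue miR-28 points lie between −0.34 and 2.34, left of the red miR-708 points for every gene, while in hTERT RPE-1 the intervals of the mimics overlap.

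In hTERT RPE-1 the tested effector genes were higher with both mimics than with siNT. MX1, CEACAM1, IFI27 and IFI6 had the largest mean responses, 7.69, 7.61, 7.44 and 6.98 on the log2 scale over both mimics, followed by USP18, ISG15, ISG20 and HERC5. Without replicate 1 of miR-28 these means were 8.41, 8.17, 8.34 and 7.55. All 39 tested members were called higher with miR-28 (limma with Benjamini-Hochberg adjustment over 14527 genes), against 23.3% of all genes, and all 39 with miR-708, against 30.9%. LGALS3BP, a secreted galectin-binding glycoprotein, lost its call with miR-28 in 2 of the 6 fits that left out 1 library. The median log2 fold change of the members was 2.88 with miR-28 and 3.67 with miR-708. The medians of all genes were 0.01 and 0.00. The values of all 39 members with miR-708, against 34.3% of all genes, and of 38 with miR-28, against 26.9%, were wholly above siNT. The exception was LGALS3BP, whose replicate 1 of miR-28 was 2112 while its siNT values reached 2230, and without that replicate the count was 39. MX1, IFI27, ISG20, BST2, RTP4 and CEACAM1 each had at least 1 siNT library under 10, and of the other 33 members, 33 were called with each mimic.

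IFI6 in hTERT RPE-1 was 224, 206 and 195 with siNT, 3417, 41866 and 31640 with miR-28, and 43682, 42052 and 40494 with miR-708. The miR-708 libraries were nearly equal, replicates 2 and 3 of miR-28 came near to them, and replicate 1 of miR-28 was far lower. MX1 was 6.04, 9.12 and 13.2 with siNT, 166, 4746 and 2318 with miR-28, and 2578, 4204 and 3927 with miR-708 (log2 fold change 8.44 ± 0.93 SE with miR-708, limma adjusted p = 2.49e-05). ISG15 was 110, 76.0 and 66.0 with siNT, 797, 7671 and 7350 with miR-28, and 7152, 8214 and 8614 with miR-708. CEACAM1, a membrane adhesion receptor that interferons induce, was 8.63, 3.04 and 4.40 with siNT, 104, 2037 and 545 with miR-28, and 1726, 4050 and 3076 with miR-708. One or more of its siNT libraries did not exceed the 3-read value, and its fold change depends on the pseudocount (log2 fold change with miR-708 of 9.01 with 0.5, 8.87 with 1 and 7.52 with 10). IFI27 was 4.32, 6.08 and 1.47 with siNT, 20.7, 1619 and 544 with miR-28, and 1660, 2800 and 2612 with miR-708, and ISG20, a 3′ to 5′ exonuclease of RNA, was 9.50, 3.04 and 5.87, then 27.3, 880 and 324, then 576, 1057 and 1044. IFI27 and ISG20 likewise had a siNT library at or under 3 reads. USP18, which also blocks the type I interferon receptor, was 31.9, 38.5 and 55.8 with siNT, 356, 4601 and 3420 with miR-28, and 4322, 5136 and 5580 with miR-708. HERC5 was 123, 123 and 166, then 1301, 11831 and 6341, then 9906, 12603 and 14104. For both, replicate 1 of miR-28 was above siNT and far below every other mimic library. The smallest responses were those of GBP1, a guanylate-binding GTPase, which was 4920, 4476 and 5632 with siNT, 5970, 16051 and 12676 with miR-28, and 10974, 11674 and 12414 with miR-708 (2.14-fold and 2.34-fold).

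By group, the membrane and trafficking proteins had the largest median log2 fold change with miR-708 in hTERT RPE-1 (6.97). The mixed group of IFI35, IFI44, IFI44L, EPSTI1, LGALS3BP and LAP3 (4.54) and the ISG15 conjugation and ubiquitin group (4.20) followed. Next came the 6 tested nucleotide and RNA factors (3.56), the ADP-ribosyltransferases (3.50) and the nuclear proteins (3.07). The GTPases (2.15) and the other TRIM proteins (2.04) had the smallest. In the membrane and trafficking group, IFI27, BST2, RTP4 and CEACAM1 had a siNT library under 10, so their changes rest on few siNT reads. With miR-708, IFI27 had a log2 fold change of 9.18 with a pseudocount of 0.5 and 7.38 with 10, and RTP4 had 6.35 and 5.12. With miR-28 the membrane and trafficking proteins again had the largest median (5.38). The ISG15 conjugation and ubiquitin group (3.72) and the mixed group (3.67) came next. Without replicate 1 of miR-28 these medians were 6.76, 4.52 and 4.61.

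Between the mimics, no member was called in hTERT RPE-1 (limma, adjusted p below 0.05), against 9.88% of all genes called higher with miR-708. An unadjusted p below 0.05 was found for 3 of 39, CEACAM1, HERC5 and IFI27. Every one of the 39 differences was above 0, with a median of 0.80 (range 0.03 to 3.10), and 36 of the 95% intervals included 0, with limits from −0.82 to 5.75. For MX1 the interval was −0.55 to 3.58 and for TRIM22, with the smallest difference, −0.57 to 0.63. Groups of libraries did not overlap, with miR-708 higher, in 1 member, against 18.5% of all genes. With the replicate number as a block, CEACAM1 was called (limma adjusted p = 0.0436). Without replicate 1 of miR-28, the median difference was 0.04, with 22 members above 0 and 17 below, and TRIM14, a mitochondrial adaptor of antiviral signalling, was called lower with miR-708. Without replicate 2 of miR-28 the median difference was 1.31 and 20 members were called higher with miR-708, while without replicate 3 it was 1.07. Shares of all genes are not given for these fits.

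The response to miR-28 itself was larger without replicate 1. The median log2 fold change of the members over siNT was 3.74, in place of 2.88, and 39 of 39 were called. The share of all genes is not given for this fit. In replicate 1 alone the members were a median of 2.16-fold above the siNT mean, from 1.19-fold for GBP1 to 19.3-fold for CEACAM1. Over the members, the mean with miR-28 was a median of 73.9% of that with miR-708, and 98.9% without replicate 1.

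**Figure D4:**
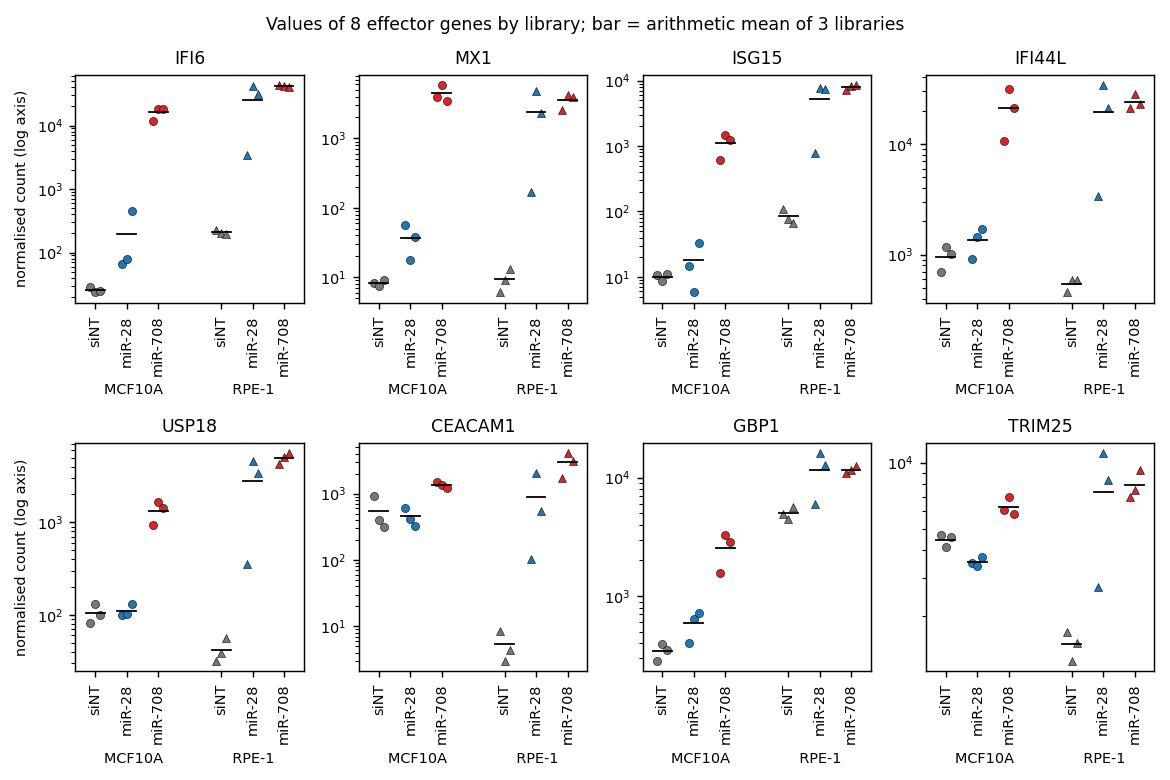
Normalised counts (log y axis) of 8 effector genes in each library by treatment, with circles for MCF10A, triangles for hTERT RPE-1 and a bar at the arithmetic mean of 3 libraries. The tables of the lines were scaled separately, so levels are compared within a line. IFI6, MX1, ISG15 and IFI44L are far below miR-708 with miR-28 in MCF10A and near it in replicates 2 and 3 in hTERT RPE-1, CEACAM1 and USP18 change more in hTERT RPE-1, and GBP1 changes more in MCF10A with miR-708.

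The responses of the lines were then compared, as the log2 fold change in hTERT RPE-1 minus that in MCF10A, with a test over the 13339 genes tested in both lines. For miR-28, 33 of 39 members responded more in hTERT RPE-1, against 12.1% of all genes, with a median difference of 2.52 on the log2 scale (all genes −0.01). BST2, CEACAM1, EPSTI1, IFI27, ISG15, ISG20, MX1 and RTP4 had a siNT library under 10 in at least 1 line, and of the other 31 members 25 were called. The largest were CEACAM1 (6.52 ± 0.90 SE), USP18 (5.29 ± 0.77 SE), MX1 (5.05 ± 1.0 SE), ISG15 (4.94 ± 0.85 SE) and EPSTI1 (4.75 ± 0.83 SE). GBP1, PARP10, SAMD9L, TRIM5, TRIM21 and TRIM22 were not called. Without replicate 1 of miR-28 in hTERT RPE-1, 38 members were called and the median difference was 3.20, and the share of all genes is not given. The order of the leading members then changed, to CEACAM1 (7.63), MX1 (6.48), USP18 (6.45), ISG20 (6.07) and IFI27 (6.06), while ISG15 had 6.01 and EPSTI1 5.83. TRIM25 fell in MCF10A and rose in hTERT RPE-1 with miR-28, from 1692, 1254 and 1514 to 2705, 11041 and 8304, where its log2 fold change was 2.09 ± 0.40 SE (limma adjusted p = 0.00177). The difference between lines was 2.43 ± 0.41 SE (from the limma fits of both lines, adjusted p = 0.00169). In MCF10A, TRIM25 was no longer called with scaling by library size (−0.23) or by upper quartile (−0.27).

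For miR-708 fewer members differed between the lines. Replicate 1 of miR-28 entered the standard errors in hTERT RPE-1 through the shared spread, and these counts were not recomputed without it. Of 39 members, 14 responded more in hTERT RPE-1, against 20.2% of all genes, and 1 less (GBP1), against 19.6%. Of the 31 members at 10 or more in every siNT library of both lines, 10 responded more and 1 less. The 14 were CEACAM1, ISG20, EPSTI1, USP18, SAMD9, BST2, IFI16, PLSCR1, PNPT1, TRIM25, PARP12, LAP3, TRIM14 and DTX3L. CEACAM1 was 928, 404 and 314 with siNT and 1479, 1340 and 1221 with miR-708 in MCF10A, a log2 fold change of 1.45 ± 0.33 SE, against 8.87 ± 0.83 SE in hTERT RPE-1. The level of this gene in the siNT libraries was high in MCF10A and near 3 reads in hTERT RPE-1, although the tables were scaled separately. ISG20 was 47.9, 36.4 and 16.4 with siNT, 49.6, 29 and 35.5 with miR-28 and 105, 210 and 163 with miR-708 in MCF10A, where miR-28 overlapped siNT and miR-708 did not. BST2, or tetherin, which holds budding virions at the cell surface, was 150, 346 and 273 with siNT and 1919, 3602 and 2827 with miR-708 in MCF10A. In hTERT RPE-1 it was 17.3, 23.3 and 7.34 with siNT, 85.1, 1580 and 694 with miR-28, and 943, 1624 and 1165 with miR-708. Its mimic libraries lay above siNT in both lines, apart from miR-28 in MCF10A (190, 313 and 420). SAMD9, an antiviral cytoplasmic protein, was likewise 5570, 2669 and 3421 with siNT in MCF10A, against 70.8, 83.1 and 131 in hTERT RPE-1. EPSTI1, a gene of epithelial–stromal interaction, was 9.58, 4.29 and 11.9 with siNT and 20.8, 25.8 and 22.0 with miR-708 in MCF10A, and 44, 47.6 and 52.8 and 2039, 2386 and 2408 in hTERT RPE-1. GBP1 rose 7.15-fold in MCF10A and 2.34-fold in hTERT RPE-1, where its siNT values were 4476 to 5632 against 285 to 395. Its difference between lines was −1.61 ± 0.39 SE (adjusted p = 0.00252).

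The difference between the mimics was itself smaller in hTERT RPE-1 for 11 of 39 members, against 2.99% of all genes called lower, with a median of −1.16 on the log2 scale (all genes 0.01). Of the 31 members at 10 or more in every siNT library of both lines it was smaller for 9. The largest were IFI6 (−5.53 ± 0.89 SE), MX1 (−5.46 ± 1.0 SE), ISG15 (−4.91 ± 0.85 SE), IFI44 (−3.56 ± 0.63 SE) and IFI44L (−3.03 ± 0.73 SE). IFI44 was 298, 435 and 560 with miR-28 and 4518, 11792 and 8897 with miR-708 in MCF10A, and 1646, 12503 and 7044 with miR-28 and 7180, 9649 and 8348 with miR-708 in hTERT RPE-1. The others were HERC6, DDX60, HERC5, UBE2L6, GBP1 and PARP14. Without replicate 1 of miR-28 in hTERT RPE-1 the count was 32, with a median of −1.89, and the leading members were MX1 (−6.90), IFI6 (−6.67), ISG15 (−5.99), IFI27 (−5.16) and IFI44 (−4.39). The count without replicate 3 was 6, and with the replicate number as a block it was 17. It was 17 without replicate 7 of miR-708 in MCF10A, and 7 without replicate 1 or without replicate 3 of miR-708 in hTERT RPE-1. Shares of all genes are not given for these other fits, so the change in the count cannot be set against that of all genes.

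**Figure D5:**
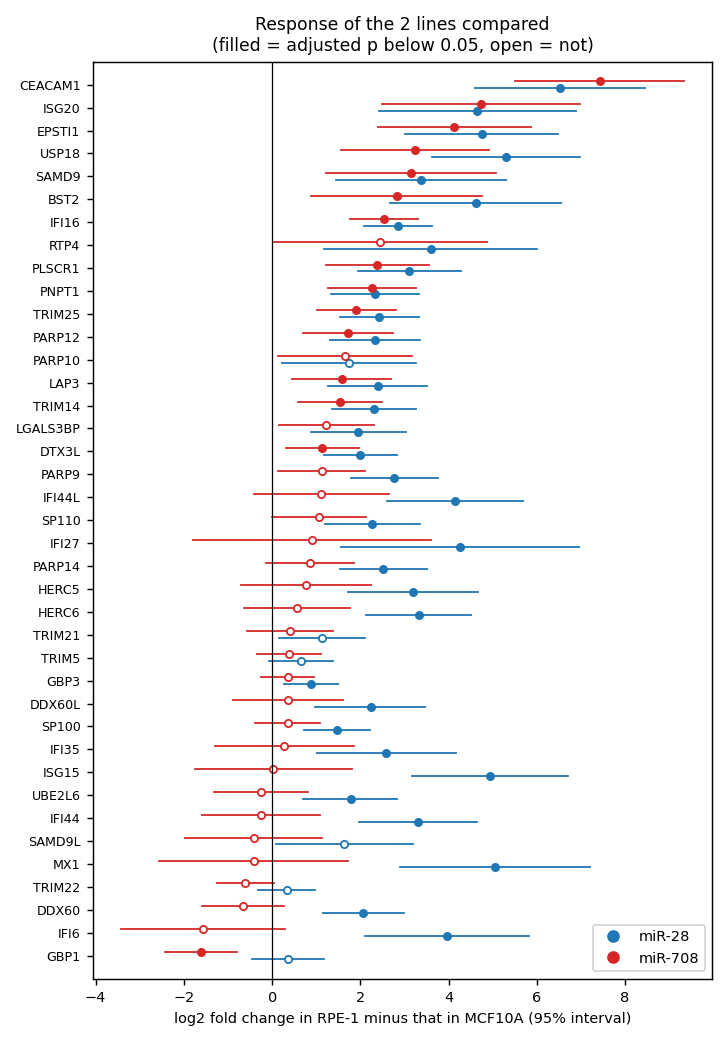
Log2 fold change against siNT in hTERT RPE-1 minus that in MCF10A (x axis, with 95% interval) for the 39 effector genes tested in both lines, sorted by the miR-708 value. Filled points passed an adjusted p below 0.05. All 39 blue miR-28 points lie right of 0, while the red miR-708 points run from −1.61 for GBP1 to 7.42 for CEACAM1.

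Within pairs of related genes, the order of the fold changes with miR-708 was the same in both lines for some pairs and turned for others. These differences within pairs were not tested. SAMD9 and SAMD9L, tandem genes whose products restrict poxviruses, had log2 fold changes with miR-708 of 1.87 and 4.19 in MCF10A, against 5.02 and 3.77 in hTERT RPE-1. SAMD9L thus had the larger log2 fold change of the pair in MCF10A and SAMD9 in hTERT RPE-1. GBP1 and GBP3, both guanylate-binding GTPases, had 2.84 and 1.79 in MCF10A, but 1.23 and 2.15 in hTERT RPE-1, again with the order turned. HERC5, the ISG15 ligase, exceeded HERC6, its neighbour, in both lines (5.69 and 3.63, then 6.47 and 4.20), and the helicase DDX60 exceeded DDX60L (4.0 and 2.79, then 3.34 and 3.15). PARP9, an ADP-ribosyltransferase relative, exceeded DTX3L, the ubiquitin ligase with which it forms a complex (2.72 and 1.49, then 3.84 and 2.63). The values of the pairs not given above lay as follows. In hTERT RPE-1, SAMD9L was 1178, 1256 and 1472 with siNT and 13927, 19779 and 20133 with miR-708, and SAMD9 was 1944, 3935 and 3525 with miR-708. HERC6 was 590, 406 and 416 with siNT and 5049, 7290 and 5199 with miR-708 in MCF10A, while in hTERT RPE-1 it was 347, 263 and 505 and then 6198, 6159 and 7534. All of these groups were separate from each other within a line. GBP3 was 420, 372 and 328 with siNT, 639, 658 and 686 with miR-28 and 984, 1567 and 1376 with miR-708 in MCF10A, and in hTERT RPE-1 it was 1899, 1726 and 2163, then 4073, 9584 and 6456, then 7826, 8608 and 9152. DDX60L was 412, 291 and 288 with siNT and 1635, 3212 and 2205 with miR-708 in MCF10A, and 1189, 1296 and 1936 and 10312, 13430 and 15169 in hTERT RPE-1. GBP3 thus stepped up from siNT to miR-28 to miR-708 in MCF10A without overlap, which DDX60L did not, since its miR-28 values of 491, 391 and 388 overlapped siNT. SP100 and SP110, nuclear body proteins, had log2 fold changes of 1.62 and 2.49 with miR-708 in MCF10A, while in hTERT RPE-1 they had 1.97 and 3.55. PARP9 was 1167, 1082 and 1061 with siNT and 5924, 8871 and 7354 with miR-708 in MCF10A, and DTX3L 2519, 2432 and 2227 and 5998, 7481 and 6723. IFI6 and IFI27, of one family, were both among the 4 largest responses to miR-708 in each line. Their order was turned as well, with ratios of the miR-708 mean to the siNT mean of 628 and 271 in MCF10A. In hTERT RPE-1, where IFI27 had few siNT reads, the ratios were 202 and 596. IFI44 and IFI44L had ratios of 34.7 and 22 in MCF10A, and of 27.5 and 44.4 in hTERT RPE-1. Reads that fit both members of a pair could be split between them in the counting, and differences within pairs were not tested.

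Genes of the signalling pathway were counted in the same way. Of 43 pathway genes, 35 were tested in MCF10A and 34 in hTERT RPE-1. With miR-28 in MCF10A, 6 of 35 were called higher and 1 lower, beside 10.7% and 12.0% of all genes tested. In both directions together, the pathway share there was below that of all genes. With miR-28 in hTERT RPE-1, 18 of 34 were called higher and 3 lower, beside 23.3% and 23.5%. The pathway results with miR-28 in hTERT RPE-1 were not recomputed without replicate 1. With miR-708 in MCF10A, 14 were called higher and 2 lower, beside 15.5% and 17.3% of all genes. The counts with miR-708 in hTERT RPE-1 were 19 higher and 5 lower, beside 30.9% and 31.2%. In both directions together, the pathway share there was only a little above that of all genes. IFNB1 and IFNL1, which encode interferons, were not analysed here. IFNE was tested in both lines and IFNA1 in hTERT RPE-1, and neither passed the test with a mimic. Of the receptor genes, IFNLR1, the specific chain of the type III interferon receptor, rose in hTERT RPE-1 from low siNT values of 7.77, 26.3 and 24.9. Its log2 fold change was 1.76 ± 0.46 SE with miR-28 and 2.32 ± 0.46 SE with miR-708. In MCF10A it had −0.04 and 0.04 and was not called. IFNAR2 was also called higher in hTERT RPE-1 with miR-28 (0.56 ± 0.09 SE) and miR-708 (0.66 ± 0.09 SE), and IFNGR2 with miR-28 (0.56 ± 0.16 SE). With miR-28 in hTERT RPE-1, IFNLR1 was 37.1, 103 and 59.4 and IFNAR2 was 1164, 1301 and 1156.

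IRF9, the DNA-binding partner of STAT2, rose by a log2 fold change of 0.88 with miR-28 and 2.93 with miR-708 in MCF10A, and by 2.26 and 2.48 in hTERT RPE-1. STAT2 rose with miR-708 in MCF10A (1.90 ± 0.25 SE) and with both mimics in hTERT RPE-1 (1.75 ± 0.36 and 2.03 ± 0.36 SE), and its log2 fold change with miR-28 in MCF10A was 0.75 ± 0.25 SE (limma adjusted p = 0.0521). IRF7, which amplifies the expression of type I interferon genes, had 18, 15 and 19.2 with siNT, 14.7, 12.4 and 22.7 with miR-28 and 169, 360 and 288 with miR-708 in MCF10A. Its miR-28 libraries overlapped siNT, and its miR-708 libraries did not. In hTERT RPE-1, replicate 1 of miR-28 was the lowest of its group for IRF9 (1515, against 2878 and 3011) and STAT2 (6015, against 21533 and 15732).

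JAK1, the kinase of the receptor complex, fell in hTERT RPE-1. It was 8624, 7958 and 9250 with siNT, 4687, 4420 and 4293 with miR-28 and 3427, 3503 and 3474 with miR-708, a change of 0.519-fold and 0.404-fold. Its miR-28 replicate 1 was close to the other replicates, unlike the effector genes. In MCF10A, JAK1 was called lower with miR-708 (0.801-fold) and had a ratio of 0.868 with miR-28 (limma adjusted p = 0.178). The other lower calls were PTPN2, a phosphatase of JAK kinases, with miR-28 in MCF10A, IRF5 with miR-708 in both lines, IL10RB and MAVS with miR-28, and IFNAR1, MAVS and TICAM1 with miR-708 in hTERT RPE-1. MAVS, the mitochondrial adaptor of RIG-I-like receptors, had 0.779-fold with miR-28 and 0.574-fold with miR-708.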

How the data were processed

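Poly(A)+ RNA of 18 libraries was sequenced. According to the labels and methods, the authors aligned reads to hg38 with HISAT2 2.1.0, quantified RefSeq Transcripts with Partek's E/M algorithm and tested differences with DESeq2. The deposited values are a signal: estimated read counts divided by a size factor for each library, scaled separately for each line. The authors' tables of their own comparisons (p-values, FDR, ratios, log2 ratios and fold changes) were not used. Of the low values, 79.1–83.1% were whole reads within 0.02 of a read, so no count test was run. The depth of each library was estimated from the step of 1 read, and the value of 3 reads covers counting error only.

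Genes that reached 10 in 3 or more of the 9 libraries per line were tested with limma 3.58.1 (R 4.3.3, with trend) on log2(value + 1), a scale that understates changes of low genes. All 3 groups of a line shared 1 estimate of the spread. P-values were two-sided and adjusted by Benjamini-Hochberg over all genes, and a gene was called at an adjusted p below 0.05. The difference between lines was divided by the root of the summed squared standard errors, with Welch–Satterthwaite degrees of freedom. An exact permutation test of 3 against 3 libraries cannot go below 0.1 and was not used. The code was tested on simulated data.

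Whether the replicate numbers pair the samples was looked at by the correlation of deviations from the group means between same-numbered samples. The main fits held no term for the replicate number, and it was used as a block only as an alternative. Every same-numbered pair was over 0.1 in MCF10A for siNT with miR-28 (0.111 to 0.263) and with miR-708 (0.115 to 0.302). In hTERT RPE-1 this held for the mimics with each other (0.134 to 0.278). A pair with unlike numbers, siNT replicate 8 and miR-28 replicate 9 in MCF10A, had 0.11, so these values do not settle the pairing. The labels call the replicates biological and do not say whether the numbers mark shared cultures.

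The members, the groups by function, the pathway and marker lists and the motifs were chosen with earlier results of these data known. Values by library are given for the 8 members with the largest mean response among those called with both mimics in a line, the 5 with the largest called differences between mimics or between lines, members called in opposite directions in the lines, and related or neighbouring gene pairs. Of the pathway, IFNB1, IFNL1, STAT2, IRF9 and IRF7 were set to be named, and other genes where a count is small, and 1 gene of the pathway is not reported here. Further genes were chosen after their values were seen. Alternatives were other pseudocounts, filters, scalings, spread models, a replicate block and leaving out each library. Sequences came from RefSeq and GENCODE 44 (GRCh38). Python 3.11.15, pandas 2.3.3, numpy 2.4.6, scipy 1.17.1 and matplotlib 3.10.9 were used. The counts over members at 10 or more in every siNT library were chosen after seeing the data.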

Additional observations from a re-analysis of the deposited data

Results flagged for a closer look

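The responses below differed between the lines by a test of the difference itself (log2 fold change in hTERT RPE-1 minus that in MCF10A, adjusted over all genes tested). With miR-28, 33 of 39 members responded more in hTERT RPE-1, against 12.1% of all genes. The largest differences were those of CEACAM1 (6.52), USP18 (5.29), MX1 (5.05), ISG15 (4.94) and EPSTI1 (4.75). With miR-708, 15 of 39 members differed (38.5%), a share near that of all genes called in either direction. Of these, 14 responded more in hTERT RPE-1, against 20.2% of all genes, and 1 less, against 19.6%. The largest were CEACAM1 (7.42), ISG20 (4.74), EPSTI1 (4.13), USP18 (3.23) and SAMD9 (3.15). The difference between the mimics was smaller in hTERT RPE-1 for 11 of 39 members, against 2.99% of all genes called lower. The largest were IFI6 (−5.53), MX1 (−5.46), ISG15 (−4.91), IFI44 (−3.56) and IFI44L (−3.03). CEACAM1 and ISG20 had siNT values at or near the level of 3 reads in hTERT RPE-1, and the differences for miR-28 use the library of that line that stood apart. Without that library the differences for miR-28 were led by CEACAM1 (7.63), MX1 (6.48) and USP18 (6.45), and those between the mimics by MX1 (−6.90), IFI6 (−6.67) and ISG15 (−5.99).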

How the results depend on the processing

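Of 486 summary values recomputed under an alternative, 449 stayed within their limits, 37 moved and 0 reversed. Of 3757 recomputed values of the 231 called results for single genes, 144 lost their call and 0 changed direction. With miR-28 in MCF10A, 7 members were called higher when a 2-fold change was also required and 8 to 14 when 1 library was left out. Members called lower were 0 with scaling by library size or upper quartile, without a trend of the spread with level or with the 2-fold limit, and 0 to 1 with 1 library left out. The median there was 0.54 with library size, 0.50 with upper quartile and 0.37 to 0.52 with 1 library left out. For the mimics in hTERT RPE-1, 1 member was called higher with a pseudocount of 10, with library size or with the replicate block, and 0 to 20 higher and 0 to 1 lower with 1 library left out. Their median difference was 1.03 with library size and 0.04 to 1.31 with 1 library left out, and the median response to miR-708 was 3.99 with library size. With the replicate block, 18 members were called higher with miR-28 in MCF10A, 2 were lower in the miR-708 response between lines (GBP1 and TRIM22), and 17 were lower in the difference between mimics between lines. That last count was 7 without the trend and 6 to 32 with 1 library left out, with a median of −1.89 to −0.72. The mean log2 level of the members with siNT was 8.16 in MCF10A and 8.25 in hTERT RPE-1, 8.35 and 8.48 with a pseudocount of 10, and 8.07 and 8.12 with library size. Scaling by library size shifted the median of all genes by up to 0.32 (miR-708 in hTERT RPE-1). In the siNT comparisons of hTERT RPE-1 and the mimic comparison of MCF10A the samples share only a number, and each sample correlated best with its own number in the siNT comparisons of hTERT RPE-1 (0.021 to 0.151) but not in the other. The replicate block changed no call against siNT in hTERT RPE-1 and added IFI16 and PARP10 between the mimics in MCF10A. Between the lines it added PARP10 for miR-28 and LGALS3BP, PARP9 and PARP10 for miR-708. The cause of these changes was not tested.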
